A study of Mus musculus with 12 samples.

Results

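The ileum of 3 mice given the tankyrase inhibitor G007-LK was set against that of 3 mice given DMSO. The libraries were chosen by their labels, as the 6 of the 12 in the series that carry the G007-LK or the control title. All 780 genes of the nCounter Mouse Tumor Signaling 360 panel were tested, without its control probes. Mice of the G007-LK group were injected into the peritoneum with 30 mg/kg 2 times a day for 28 days. Control mice took DMSO by mouth 1 time a day for the same 28 days, so route and schedule cannot be told apart from the compound. The 3 mice of a group were drawn at random from 8. The labels used here give no strain, sex or age and describe no graft, transgene or injected control.

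Tankyrases attach poly(ADP-ribose) to axin, the scaffold of the complex that marks beta-catenin for degradation, and modified axin is itself degraded. Inhibiting them stabilizes axin and lowers beta-catenin-dependent transcription, on which the crypts of the intestine rely for stem cell renewal and cell division. The ileal wall also holds macrophages, lymphocytes, fibroblasts and smooth muscle, and RNA from all of these was counted together. In such bulk tissue, fewer cells of a type and less RNA per cell cannot be told apart.

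The first replicate of both groups stood apart from the other libraries. Summed gene counts were 508829, 50249 and 148454 in G007-LK replicates 1 to 3, against 293538, 43922 and 31901 in control replicates 1 to 3. The background threshold, in the units of the deposited signal, was 4.36, 40.4 and 12.2 in G007-LK mice and 4.33, 24.6 and 29.3 in control mice. Across genes within the group, G007-LK replicate 1 correlated with replicates 2 and 3 at Pearson's r of 0.62 and 0.72 on the log2 scale, whereas those 2 correlated at 0.91. Control replicate 1 correlated with its partners at 0.71 and 0.75, whereas they correlated with each other at 0.92. The same-numbered mice also deviated together from their group means, though unlike-numbered mice were not compared and the labels name no pairing. Each call is also given with the replicate number as a block where that changes it. Leaving out the first replicate of both groups gave 23 calls, of which 20 were among the 27 found with all libraries. Epithelial Epcam and Cdh1 were above background in all 6 libraries, which matches the tissue on the label.

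Limma called 27 of the 780 genes at an adjusted p under 0.05, which is 3.46% of the panel. Of these, 18 were higher with G007-LK (2.31%) and 9 were lower (1.15%). With the replicate block 63 genes were called (8.08%), 41 of them higher (5.26%) and 22 lower (2.82%), and they included all 27. The 3 G007-LK values lay wholly above the 3 control values for 79 genes (10.1%) and wholly below them for 62 (7.95%), and none of the 27 called genes overlapped. Over all genes the log2 fold change had a median of -0.09, and 352 of 780 genes lay above 0. The called genes include the macrophage genes Gpnmb and Cd68 on the higher side, and the epithelial gene Sfn and the cell cycle gene Ccnd1 on the lower. The values that follow are those of 4 further called genes, C3ar1, Fstl1, Cd274 and Hif1a, and of the families and uncalled genes around them.

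All 4 of these genes were higher with G007-LK. C3ar1 encodes the receptor for the complement fragment C3a, which draws in myeloid cells. Fstl1 encodes a secreted follistatin-like glycoprotein of mesenchymal cells. Cd274 encodes PD-L1, the ligand through which tissue and myeloid cells restrain T cells that carry PD-1. Hif1a encodes the oxygen-regulated subunit of the hypoxia-inducible factor HIF-1, whose protein is degraded when oxygen is plentiful.

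The promoter windows of these 4 genes are shown because they are the called genes not singled out in earlier results of these data. Direction played no part in that choice, and the other called genes were not searched. The windows let a reader see which of 4 short motifs each one holds. Each window runs from 250 bases before to 50 bases after the start used in a RefSeq promoter table on GRCm38.p6, with motif letters in capitals, 5′ to 3′ on the gene's own strand. The windows are chr6:122856108-122856407 on the minus strand for C3ar1, and, on the plus strand, chr16:37776805-37777104 for Fstl1, chr19:29367188-29367487 for Cd274 and chr12:73907617-73907916 for Hif1a. For Cd274 and Hif1a that start lies inside the span of the gene in the RefSeq gene table, which begins further upstream at 29362107 and 73901324, so these 2 windows belong to a start within the gene.
C3ar1: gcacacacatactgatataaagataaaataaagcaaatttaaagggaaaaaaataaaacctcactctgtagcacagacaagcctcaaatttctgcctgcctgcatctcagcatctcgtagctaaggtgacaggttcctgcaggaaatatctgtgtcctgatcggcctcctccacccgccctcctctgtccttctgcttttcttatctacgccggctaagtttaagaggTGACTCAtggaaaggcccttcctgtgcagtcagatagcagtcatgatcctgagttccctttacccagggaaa
Fstl1: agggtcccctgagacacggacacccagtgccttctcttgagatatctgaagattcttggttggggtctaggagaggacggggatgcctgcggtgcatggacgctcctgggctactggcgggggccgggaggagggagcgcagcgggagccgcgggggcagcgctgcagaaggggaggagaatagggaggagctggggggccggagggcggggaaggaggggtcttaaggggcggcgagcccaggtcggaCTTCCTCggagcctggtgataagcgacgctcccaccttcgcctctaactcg
Cd274: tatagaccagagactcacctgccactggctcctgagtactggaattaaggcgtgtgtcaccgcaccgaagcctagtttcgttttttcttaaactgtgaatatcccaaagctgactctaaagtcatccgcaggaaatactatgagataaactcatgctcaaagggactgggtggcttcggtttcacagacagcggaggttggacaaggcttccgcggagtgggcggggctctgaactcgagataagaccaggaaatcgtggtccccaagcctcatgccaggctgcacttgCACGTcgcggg
Hif1a: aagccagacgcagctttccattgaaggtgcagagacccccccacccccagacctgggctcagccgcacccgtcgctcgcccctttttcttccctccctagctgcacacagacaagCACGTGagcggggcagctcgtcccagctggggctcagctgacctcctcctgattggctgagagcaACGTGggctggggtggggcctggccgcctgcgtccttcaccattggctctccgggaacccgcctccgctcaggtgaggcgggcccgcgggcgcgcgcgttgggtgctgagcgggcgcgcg
The motifs searched on both strands were TGANTCA (AP-1), ACGTG (hypoxia response element), TTCNNNGAA (STAT) and GAGGAAG (PU.1). The C3ar1 window held TGACTCA at its bases 229 to 235, and 7.8% of 32851 RefSeq promoter windows hold an AP-1 match. The Fstl1 window held the PU.1 letters on the opposite strand, as CTTCCTC at bases 250 to 256, against 13.6% of all windows. The Cd274 window held the hypoxia element on the opposite strand, as CACGT at bases 290 to 294. In the Hif1a window that element stood at bases 116 to 121, on both strands within CACGTG, and again as ACGTG at bases 181 to 185. Of all windows, 19.6% hold that element, and 8.3% hold a STAT match, which none of the 4 did. Among the 701 windows of panel genes the shares were 24.4% for the hypoxia element and 16.4% for PU.1. For AP-1 and STAT they were 7.3% and 7.4%. These are matches of letters only, and binding was not measured.

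C3ar1 signal was 1255, 1462 and 667 in G007-LK replicates 1 to 3, against 168, 191 and 227 in control replicates 1 to 3. Every G007-LK mouse lay above every control, and replicate 1 did not stand apart from replicate 2. The means were 1128 ± 413 in G007-LK mice and 195.4 ± 29.9 in controls (SD, n = 3 each). On the log2 scale C3ar1 was higher by 2.46 ± 0.51 (SE, limma adjusted p = 0.0109). It was called under 16 of the 17 alternative settings, the exception being a common background floor (adjusted p = 0.0684).

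Fstl1 signal was 1365, 506 and 745 in G007-LK mice, against 131, 145 and 278 in control mice. The lowest G007-LK mouse, replicate 2, lay above the highest control, replicate 3. The means were 872 ± 443 in G007-LK mice and 184.9 ± 80.9 in controls (SD, n = 3 each). On the log2 scale Fstl1 was higher by 2.19 ± 0.47 (SE, limma adjusted p = 0.0109). Without G007-LK replicate 1 the change was 1.81 (limma adjusted p = 0.0593), and without control replicate 2 it was 2.06 (0.0599). Fstl1 was called under 11 of the 17 settings.

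Cd274 signal was 989, 148 and 267 in G007-LK mice, against 29.1, 62.0 and 74.4 in control mice. G007-LK replicate 1 lay far above its partners, and the groups did not overlap. The log2 fold change was 2.70 ± 0.65 (SE, n = 3 each, limma adjusted p = 0.0276). Without G007-LK replicate 1 it was 1.93 (limma adjusted p = 0.128), and without the first replicate of both groups 1.54 (0.167), so the call was lost in both fits. The call was also lost without control replicate 1 (2.31, 0.0956) and without control replicate 2 (2.84, 0.0599), and held under 10 of the 17 settings.

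Hif1a signal was 2714, 268 and 373 in G007-LK mice, against 102, 140 and 114 in control mice. All 3 G007-LK mice were above all controls, but replicate 1 was many times higher than its partners. The log2 fold change was 2.45 ± 0.65 (SE, n = 3 each, limma adjusted p = 0.0459), and it was 1.42 without G007-LK replicate 1 (adjusted p = 0.2). The call was also lost on leaving out control replicate 1, 2 or 3 (limma adjusted p = 0.106, 0.1 and 0.132), and was kept under 8 of the 17 settings, the replicate block among them (0.00607).

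**Figure D1:**
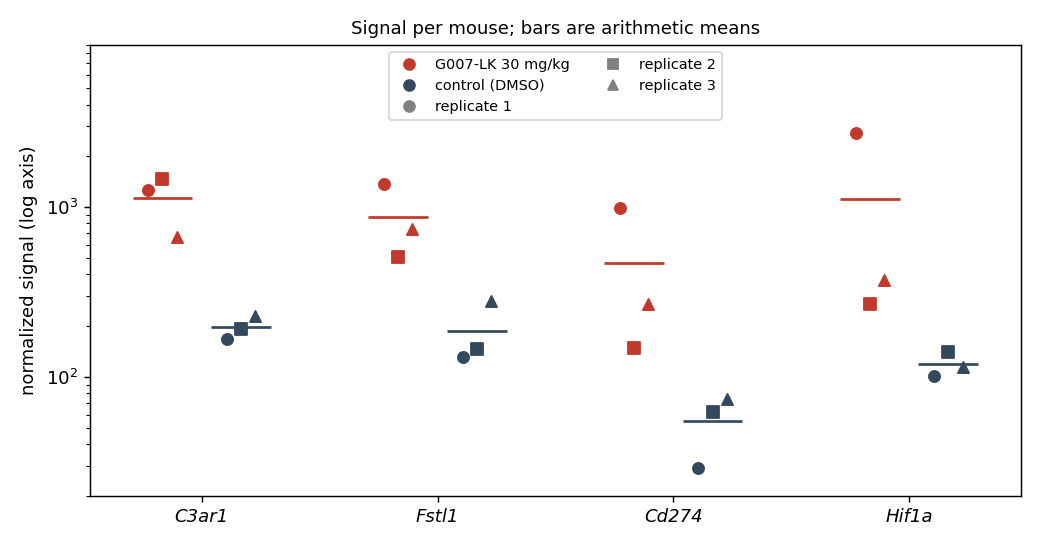
Deposited normalized signal per mouse (log axis) of C3ar1, Fstl1, Cd274 and Hif1a, with G007-LK mice in red to the left of control mice in dark blue, marker shape for the replicate number and horizontal bars for arithmetic means. No gene's groups overlap, and in Cd274 and Hif1a the G007-LK mean sits far above replicates 2 and 3 because of replicate 1.

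Among genes that missed the threshold while their groups did not overlap, the 10 rises and 10 falls with the smallest unadjusted p were taken in turn. Of these 20, 18 were called once the replicate number entered the fit as a block, the exceptions being Igf1r and Pfkp. The 20 had been picked by small p and lack of overlap in these same values, so that count is no separate evidence for them. The falls among them were led by Sqle and Myb. Sqle encodes squalene epoxidase, a rate-limiting enzyme of cholesterol synthesis. Its signal was 40.2, 79.2 and 80.0 in G007-LK mice, against 409, 267 and 172 in control mice. Every G007-LK mouse lay below every control, at a log2 difference of -2.05 ± 0.55 (SE, limma adjusted p = 0.0505, and 0.0126 with the replicate block). Myb encodes a transcription factor of progenitor cells, including those of the intestinal crypt. Its signal was 4.84, 48.6 and 34.9 in G007-LK mice, against 117, 175 and 125 in control mice, again without overlap. The log2 fold change of Myb was -2.66 ± 0.73 (SE, limma adjusted p = 0.0548, and 0.00501 with the block).

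Tfrc, the transferrin receptor that brings iron into dividing cells, had 92.2, 40.9 and 29.8 in G007-LK mice, against 518, 135 and 133 in control mice. Replicate 1 was the highest mouse in both groups, and with the block its log2 fold change of -2.10 had an adjusted p of 0.00618, against 0.1 in limma without it. Tubg1, the gamma-tubulin of the centrosome, had 33.9, 66.5 and 48.5 in G007-LK mice, against 201, 127 and 188 in control mice. Ruvbl1, an ATPase of chromatin remodelling complexes, had 39.3, 56.2 and 60.5 in G007-LK mice, against 164, 135 and 157 in control mice. Both were lower in every G007-LK mouse and missed the threshold in limma without the block (adjusted p = 0.1 for both), while with the block they were called (0.0229 for Tubg1 and 0.0274 for Ruvbl1).

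B4galnt1, a glycosyltransferase that builds complex gangliosides, had 318, 785 and 622 in G007-LK mice, against 2118, 1579 and 1496 in control mice (log2 fold change -1.67 ± 0.51, limma adjusted p = 0.1, with the block 0.0483). Plcb3, a phospholipase C activated by G proteins, had 68.9, 35.8 and 148 in G007-LK mice, against 491, 625 and 168 in control mice. Its control replicate 3 lay close to the highest G007-LK mouse, and the log2 fold change of -2.36 ± 0.80 was called with the block (limma adjusted p = 0.138, with the block 0.017). For Plcb3, 2 of the 3 G007-LK values exceeded background. The splicing factor Sf3a1 was dim, with 12.1, 10.2 and 5.96 in G007-LK mice, against 93.8, 21.6 and 50.9 in control mice, and 1 of its 3 G007-LK and 2 of its 3 control values exceeded background. Vegfb, a growth factor of the VEGF family, had 24.2, 43.5 and 12.8 in G007-LK mice, against 192, 70.1 and 74.4 in control mice. With the block both were called (adjusted p = 0.0179 for Sf3a1 and 0.0229 for Vegfb).

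The rises in this group included Il3ra, Mcl1, Bhlhe40, Sdc1, Itgam, Sirpa, Igf1r, Socs3 and Runx1. Il3ra, the alpha chain of the interleukin-3 receptor, had 252, 253 and 360.2 in G007-LK mice, against 59.0, 70.1 and 97.9 in control mice. Its mice agreed closely within each group, replicate 1 included, and the log2 fold change was 1.93 ± 0.53 (limma adjusted p = 0.0548, with the block 0.00607). Mcl1, an anti-apoptotic member of the BCL-2 family, had 2207, 1099 and 1810 in G007-LK mice, against 908, 431 and 415 in control mice (log2 fold change 1.58 ± 0.47, limma adjusted p = 0.0836, with the block 0.0276). Bhlhe40, a transcription factor of activated immune cells, had 240.3, 38.3 and 46.0 in G007-LK mice, against 22.9, 2.69 and 11.8 in control mice. Its G007-LK replicate 1 stood far above the others, and only 2 of the 3 G007-LK and 1 of the 3 control values exceeded background, so the size of the difference is uncertain (log2 fold change 2.88 ± 0.88, limma adjusted p = 0.1, with the block 0.00334). Runx1, a transcription factor of blood cell development, was dimmer, with 104, 17.9 and 14.5 in G007-LK mice, against 5.29, 8.08 and 3.92 in control mice, and likewise 2 and 1 values above background (limma adjusted p = 0.111, with the block 0.0341).

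**Figure D2:**
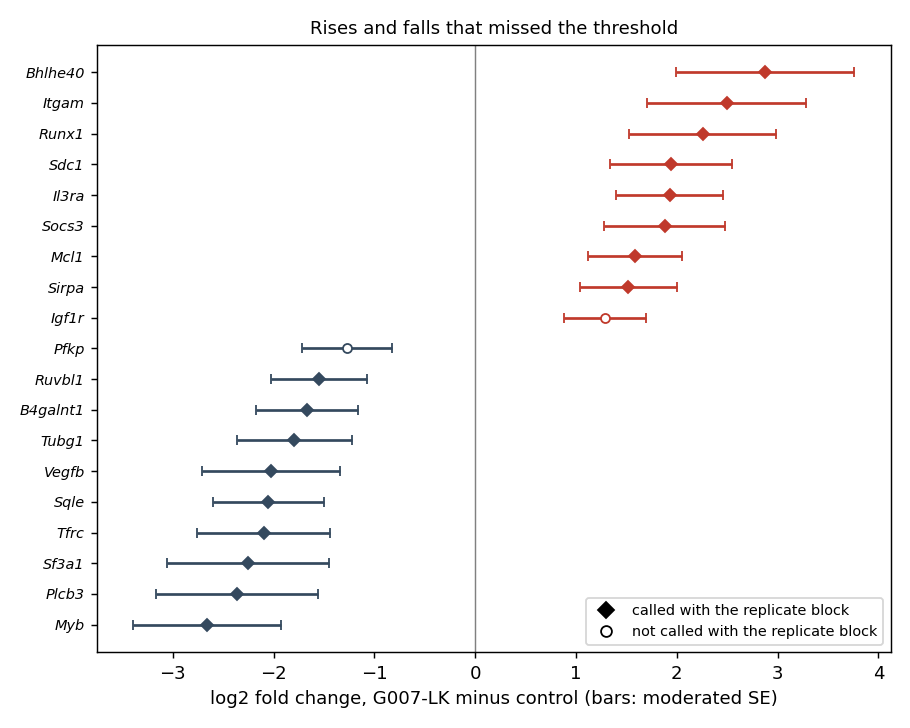
Log2 fold change, G007-LK minus control, of 9 rises (red) and 10 falls (dark blue) from those with the smallest unadjusted p among uncalled genes without overlap between groups, with the moderated SE as bars. Filled diamonds mark the 17 genes called with the replicate block, and open circles mark Igf1r and Pfkp, which were not.

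For the gene families, 532 of the 780 genes fell into at least 1 of 45 families with 3 or more measured members. Each family is described by its counts and its median log2 fold change, beside -0.09 for all genes, and no family was tested as a set. Of all 780 genes, 103 had an unadjusted p under 0.05 in limma, edgeR called 32 and DESeq2 called 47. A few such genes in a family therefore do not set it apart from the panel. In 28 of the 45 families the median changed sign when the first replicate of 1 group was left out, in 16 without that of G007-LK and in 12 without that of control. The median of all genes itself was 0.27 and -0.40 in those fits. Values are given beside some of the families that turned, and not beside all 28.

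Of 7 Fc and immunoglobulin-like receptors of myeloid cells, all 7 had a log2 fold change above 0, with a median of 0.93, and 1 did not overlap between the groups. The per-mouse medians against the control mean were 2.04, 0.87 and 0.72, and without the first replicate of both groups the median was 0.29. Limma called none of these 7, while 2 had an unadjusted p under 0.05, edgeR called 0 and DESeq2 called 1. Sirpa, the macrophage receptor for the CD47 signal that protects cells from engulfment, had 533, 314 and 302 in G007-LK mice, against 71.8, 164 and 180.1 in control mice. The groups did not overlap, and its log2 fold change of 1.52 ± 0.48 was called with the replicate block (limma adjusted p = 0.1, with the block 0.0395). Cd33, a sialic-acid-binding receptor of myeloid cells, had 309, 107 and 89.4 in G007-LK mice, against 22.9, 80.8 and 106 in control mice, which overlap. Pirb, an inhibitory receptor for MHC class I, had 106, 15.3 and 18.7 in G007-LK mice, against 7.93, 18.9 and 3.92 in control mice, and 2 of its 3 G007-LK values and 1 of its 3 control values exceeded background.

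Of 22 integrins and other adhesion molecules, 14 were above 0, 1 was called higher, and the median was 0.31, which turned to -0.25 without control replicate 1. With the replicate block 4 were called higher. Itgam, the alpha chain CD11b of the myeloid integrin Mac-1, had 187, 30.7 and 36.6 in G007-LK mice, against 6.17, 18.9 and 7.83 in control mice. Replicate 1 stood out in the G007-LK group, and with 2 of the 3 G007-LK and 1 of the 3 control values above background the size of the difference is uncertain (log2 fold change 2.49 ± 0.79, limma adjusted p = 0.1, with the block 0.0229). Itga5, the alpha chain of the fibronectin receptor, had 875, 317 and 407 in G007-LK mice, against 89.0, 202 and 231 in control mice (log2 fold change 1.58 ± 0.52). Limma without the block did not call it (unadjusted p = 0.00725), while with the block it was called (adjusted p = 0.0466). Of the 17 alternative settings, 3 called it. Its beta chain partner Itgb1 had 1473, 629 and 483 in G007-LK mice, against 668, 170 and 180.1 in control mice, so that control replicate 1 overlapped the G007-LK range (limma adjusted p = 0.214). Syk, a kinase that carries the signal of Fc receptors and of the B cell receptor, had 440, 151 and 179 in G007-LK mice, against 64.3, 102 and 102 in control mice (limma adjusted p = 0.202).

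The receptors, integrins and Syk given by name above had log2 fold changes above 0, some with overlap, and so did the markers of myeloid cells. Itgam is in both sets. Other lists of myeloid cells did not rise, with a median of -0.57 for 2 neutrophil markers and -0.23 for 4 dendritic cell markers. The dendritic cell median turned to 0.74 without G007-LK replicate 1. All 5 myeloid markers (Cd68, Csf1r, Itgam, Cd14 and Tyrobp) had a log2 fold change above 0, and 3 of them were called higher. Their summed signal was 5519, 4629 and 3484 in G007-LK mice, against 559, 595 and 634 in control mice. Control mice differed little among themselves, and the part that a change in cell number plays in the single genes was not tested.

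Of 25 interleukins and their receptors, 15 were above 0 and the median was 0.40, which turned to -0.13 without control replicate 1 and to -0.30 without the first replicate of both groups. Limma called none of them, 4 had an unadjusted p under 0.05 (3 of them higher), edgeR called 2, DESeq2 called 2, and the replicate block called 2, which were Il3ra and Il6. Il4ra, the receptor chain for interleukins 4 and 13, had 1071, 113 and 121 in G007-LK mice, against 42.7, 91.6 and 70.5 in control mice. Without overlap, but with replicate 1 far above the others, its log2 fold change of 1.89 ± 0.75 had a limma adjusted p of 0.221. Il15, which sustains natural killer and intraepithelial T cells, ran the other way with 4.53, 23 and 9.37 in G007-LK mice, against 37.9, 40.4 and 39.2 in control mice. Only 1 of the 3 G007-LK values exceeded background for Il15, against all 3 controls (limma adjusted p = 0.228).

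Of 9 JAK, STAT and SOCS genes, 8 were above 0 and the median was 0.37. Limma called none, 2 had an unadjusted p under 0.05, edgeR called 0 and DESeq2 called 1, while the replicate block called 2 higher, Stat3 and Socs3. Stat3, the transcription factor downstream of the interleukin-6 family, had 1346, 164 and 355 in G007-LK mice, against 194, 51.2 and 141 in control mice. The groups overlapped because control replicate 1 exceeded G007-LK replicate 2. Within each replicate number the G007-LK mouse was higher, but the labels do not pair the mice (log2 fold change 1.92, limma adjusted p = 0.204, with the block 0.014). Socs3, the feedback inhibitor that Stat3 induces, had 1300, 215 and 259 in G007-LK mice, against 93.4, 119 and 129 in control mice, without overlap (log2 fold change 1.88 ± 0.60, limma adjusted p = 0.1, with the block 0.0274).

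Among 13 NF-kB genes the log2 fold change was above 0 in 12, with a median of 0.69, and the per-mouse medians against the control mean were 1.52, 0.52 and 0.62. The highest log2 fold change was that of Tnfaip3, the A20 feedback inhibitor of NF-kB, with 2419, 151 and 179 in G007-LK mice, against 42.3, 80.8 and 70.5 in control mice (2.68 ± 0.78, limma adjusted p = 0.0787, with the block 0.0155). Limma called none of the 13, 2 had an unadjusted p under 0.05, and 1 each was called by edgeR, by DESeq2 and with the block. Relb, a subunit of the alternative NF-kB pathway, had 222, 43.5 and 40.0 in G007-LK mice, against 54.2, 18.9 and 11.8 in control mice. Traf6, the ubiquitin ligase that links Toll-like receptors to NF-kB, had 81.6, 15.3 and 38.3 in G007-LK mice, against 7.49, 8.08 and 15.7 in control mice. In both genes the groups overlapped and only 1 of 3 control values exceeded background, and neither was called (limma adjusted p = 0.432 for Relb and 0.172 for Traf6).

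Chemokines and their receptors gave no common direction. Of 10 chemokine ligands 7 were above 0 (median 0.11), and of 11 chemokine receptors 5 were (median -0.40). Without control replicate 1 the ligand median turned to -0.54, and without G007-LK replicate 1 the receptor median turned to 0.48. Limma called none of the 21. At an unadjusted p under 0.05 there were 1 ligand and 2 receptors, edgeR called 0, and DESeq2 called 1 ligand. Ccl2, the ligand that recruits monocytes through Ccr2, had 2013, 151 and 129 in G007-LK mice, against 27.8, 121 and 164 in control mice. Its log2 fold change of 2.03 ± 0.89 rested on replicate 1 and was -0.015 without the first replicate of both groups. Ccr2 itself had 16.0, 135 and 45.1 in G007-LK mice, against 80.2, 180.5 and 243 in control mice, and the groups overlapped. Each G007-LK mouse was below the control of the same number, a pairing that no label gives (log2 fold change -1.69 ± 0.63, limma adjusted p = 0.202, with the block 0.0351). Ccr1, another receptor of monocytes, had 151, 138 and 170.3 in G007-LK mice, against 22.5, 64.7 and 137 in control mice, with no overlap but a limma adjusted p of 0.372. Ccl4 had 118, 169 and 103 in G007-LK mice, against 15.9, 80.8 and 102 in control mice. Cxcl10, which interferon induces, had 1151, 322 and 104 in G007-LK mice, against 68.7, 91.6 and 286 in control mice, and the groups overlapped.

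Among 24 interferon response genes, 11 were above 0 and the median was -0.24, which turned to 0.29 without G007-LK replicate 1. Limma called none, 3 had an unadjusted p under 0.05, edgeR called 0 and DESeq2 called 1. Ifnar1, a chain of the type I interferon receptor, had 370.3, 202 and 219 in G007-LK mice, against 77.1, 127 and 141 in control mice (log2 fold change 1.18 ± 0.45, limma adjusted p = 0.202). Psmb9, an immunoproteasome subunit, had 65.0, 156 and 126 in G007-LK mice, against 408, 183 and 255 in control mice (log2 fold change -1.29 ± 0.49, limma adjusted p = 0.202). The receptor chain and the proteasome subunit thus lay on opposite sides, each without overlap. Oas1a, an antiviral enzyme induced by interferon, had 31.4, 7.67 and 11.1 in G007-LK mice, against 252, 16.2 and 39.2 in control mice, with 1 G007-LK and 2 control values above background.

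Ptgs2 was high in some G007-LK mice and not in all. It encodes cyclooxygenase-2, the inducible enzyme of prostaglandin synthesis, and had 3806, 435 and 127 in G007-LK mice, against 117, 80.8 and 153 in control mice. G007-LK replicate 3 lay inside the control range (log2 fold change 2.39 ± 0.89, limma adjusted p = 0.202, with the block 0.0276, and 3.50 with adjusted p = 0.028 without that replicate). The arachidonic acid family of Ptgs2 had 4 of 6 genes above 0 and a median of 0.14, and the family of matrix proteases and the plasminogen system had 3 of 6 above 0 and the same median. Without control replicate 1 these medians turned to -0.28 and -0.13.

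Of 17 collagens, laminins and other matrix genes, 15 were above 0, 2 were called higher by limma (Thbs1 and Col4a1), 4 were called higher with the replicate block, and the median was 0.65. The per-mouse medians against the control mean were 1.45, 0.45 and 0.67, and the median stayed between 0.42 and 1.00 in the alternative settings. Fbln2, a fibulin that binds elastic fibres and basement membrane, had 400, 133 and 171 in G007-LK mice, against 87.7, 43.1 and 78.3 in control mice. The groups did not overlap, and its log2 fold change of 1.63 ± 0.57 was called with the block (limma adjusted p = 0.152, with the block 0.0382). Col4a2, the partner chain of Col4a1 in basement membranes, had 947, 350.2 and 393 in G007-LK mice, against 428, 108 and 325 in control mice. Col6a1, a chain of microfibrillar collagen, had 547, 371 and 427 in G007-LK mice, against 378, 172 and 255 in control mice. In both collagens only control replicate 1 reached into the G007-LK range, and neither was called (limma adjusted p = 0.479 for Col4a2 and 0.45 for Col6a1).

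The TGF-beta, BMP and activin family had 9 of 12 genes above 0, 1 called higher, 4 without overlap and a median of 0.82, which was 0.53 without G007-LK replicate 1. The called gene was Thbs1, already counted among the matrix genes. With the block 2 were called higher. Grem1, an antagonist of BMP secreted by fibroblasts under the crypts, had 234, 276 and 122 in G007-LK mice, against 48.5, 137 and 129 in control mice, and the groups overlapped (limma adjusted p = 0.46). Of the 3 measured markers of fibroblasts and pericytes, Pdgfra and Dcn had log2 fold changes of 1.13 and 1.45 and Pdgfrb one of -0.0069, and none was called (limma adjusted p = 0.202, 0.202 and 0.995). Dcn also counts among the matrix genes. The 3 markers summed to 1378, 606 and 937 in G007-LK mice, against 438, 329 and 501 in control mice, and their part in the matrix values was not tested.

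Growth factors and their receptors split. Of 17 genes of the FGF, PDGF, HGF and IGF families, 7 were above 0 and the median was -0.12, which turned to 0.45 without G007-LK replicate 1. Limma called none, 4 had an unadjusted p under 0.05, edgeR called 0 and DESeq2 called 1. Igf1r, the receptor of insulin-like growth factor 1, had 1031, 1891 and 1530.1 in G007-LK mice, against 581, 490.3 and 724 in control mice. Replicate 1 was here the lowest G007-LK mouse and still above every control (log2 fold change 1.28 ± 0.41, limma adjusted p = 0.1, with the block 0.0723). Igfbp3, which binds the IGF ligands, had 558, 99.7 and 97.1 in G007-LK mice, against 41.0, 111 and 58.7 in control mice. Fgfr1 had 343, 99.7 and 206 in G007-LK mice, against 151, 29.6 and 58.7 in control mice, and the groups overlapped. It was higher within each replicate number, though the labels do not pair the mice (limma adjusted p = 0.421, with the block 0.0818). The 5 genes of the EGF family had a median of -0.79, which turned to 0.18 without G007-LK replicate 1. Among them Erbb3 was called lower, while its relative Egfr had 283, 192 and 255 in G007-LK mice, against 105, 132 and 176 in control mice (log2 fold change 0.83 ± 0.44, limma adjusted p = 0.467).

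Among 14 hypoxia response genes, Hif1a was called higher and Car9, a carbonic anhydrase and classic HIF target, was called lower, and the median was 0.05 with 7 of 14 above 0, a value that turned with the scaling and with single libraries. Hif1a and the targets of HIF-1 on the panel did not share a direction. Of 10 genes of glycolysis and the pentose phosphate pathway, 3 were above 0, 1 was wholly above and 3 wholly below the controls, and the median was -0.15. Limma called none of the 10, 3 had an unadjusted p under 0.05, and neither edgeR nor DESeq2 called any, with 0 each. Slc2a1, the glucose transporter GLUT1, had 280.2, 161 and 134 in G007-LK mice, against 86.3, 78.1 and 86.1 in control mice (log2 fold change 1.12 ± 0.47, limma adjusted p = 0.282). Aldoa, the aldolase of glycolysis, had 2667, 2998 and 2195 in G007-LK mice, against 9907, 5189 and 7784 in control mice (log2 fold change -1.50 ± 0.67, limma adjusted p = 0.321). Pfkp, a phosphofructokinase, had 165, 248 and 254 in G007-LK mice, against 891, 348 and 478 in control mice (log2 fold change -1.27 ± 0.45, limma adjusted p = 0.16, with the block 0.0872). In each of these 3 genes the groups did not overlap, the transporter lying above and both enzymes below the controls.

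Further metabolic genes varied singly. In the family of 6 genes of fatty acid and cholesterol metabolism, 4 were below 0. Its median of -0.22 turned to 0.05 without G007-LK replicate 1. Beside Sqle, the mitochondrial carnitine palmitoyltransferase Cpt2 had 81.6, 110 and 156 in G007-LK mice, against 431, 143 and 165 in control mice, which overlap. Slc1a5, the glutamine transporter ASCT2, had 117, 171 and 116 in G007-LK mice, against 382, 210.1 and 282 in control mice (log2 fold change -1.09 ± 0.41, limma adjusted p = 0.202). Gpt, an alanine aminotransferase, had 9.67, 17.9 and 30.7 in G007-LK mice, against 90.7, 43.1 and 23.5 in control mice. Arg1, the arginase of alternatively activated macrophages, had 77.4, 107 and 5.11 in G007-LK mice, against 3.52, 8.08 and 23.5 in control mice, none of the controls being above background. Of those, only Slc1a5 separated the groups.

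Among 9 antioxidant genes 5 were above 0 and the median was 0.29. Limma called none, 3 had an unadjusted p under 0.05, and calls by edgeR and by DESeq2 numbered 0. Txn1, thioredoxin, had 984, 281 and 746 in G007-LK mice, against 282, 132 and 102 in control mice. G007-LK replicate 2 fell just below control replicate 1, and the log2 fold change of 1.92 ± 0.58 was called with the block (limma adjusted p = 0.1, with the block 0.0301). Gpx1, a glutathione peroxidase, had 935, 348 and 462 in G007-LK mice, against 324, 159 and 227 in control mice, without overlap (limma adjusted p = 0.163). Hmox1, the haem oxygenase, had 481, 197 and 149 in G007-LK mice, against 22.9, 170 and 129 in control mice.

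**Figure D3:**
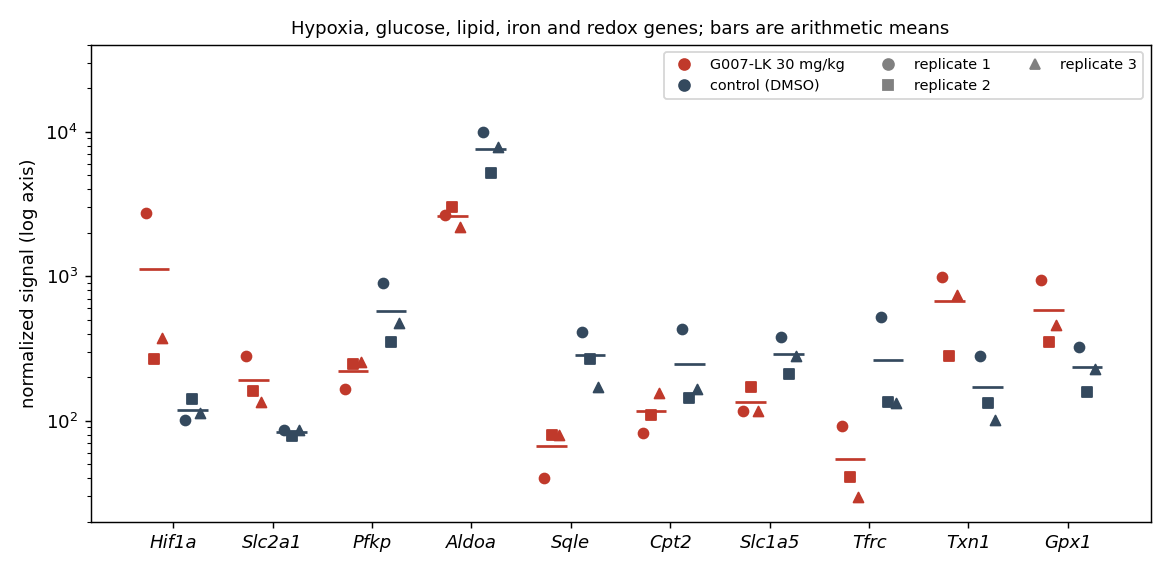
Deposited normalized signal per mouse (log axis) of 10 metabolic genes, with G007-LK mice in red to the left of control mice in dark blue, marker shape for the replicate number and horizontal bars for arithmetic means. Hif1a, Slc2a1 and Gpx1 lie above the controls in every G007-LK mouse, while Pfkp, Aldoa, Sqle, Slc1a5 and Tfrc lie below them, and Cpt2 and Txn1 overlap.

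All 6 autophagy and lysosome genes were above 0, with a median of 0.74 and per-mouse medians of 0.71, 0.67 and 0.86 against the control mean. Limma called none, 0 had an unadjusted p under 0.05, and calls by edgeR and by DESeq2 numbered 0. Gusb, the lysosomal beta-glucuronidase, had 307, 371 and 445 in G007-LK mice, against 171, 264 and 219 in control mice, and Gabarap, which is attached to the growing autophagosome, had 539, 179 and 295 in G007-LK mice, against 212, 151 and 149 in control mice. The medians were of like size in all 3 mice, but those of all genes were -0.75, 0.35 and 0.22. Beside the panel, G007-LK replicate 1 thus stood furthest off. Of the stress genes, the small heat shock protein Hspb1 had 382, 386 and 348 in G007-LK mice, against 142, 205 and 239 in control mice. Eif2ak3, the kinase PERK of the unfolded protein response, had 149, 263 and 164 in G007-LK mice, against 280, 391 and 325 in control mice. Both separated the groups, in opposite directions, and neither was called (limma adjusted p = 0.404 for Hspb1 and 0.453 for Eif2ak3).

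Of 43 genes of DNA replication and mitosis, 38 were below 0, 8 lay wholly below the controls, 2 were called lower by limma and 5 with the replicate block, and the median was -0.76. The per-mouse medians were -2.16, -0.05 and -0.22, beside -0.75, 0.35 and 0.22 for all genes, so G007-LK replicate 1 was far lower than its partners. Without that replicate the family median was -0.18, where that of all genes was 0.27. Tpx2, which activates Aurora A on the mitotic spindle, had 20.0, 148 and 76.6 in G007-LK mice, against 158, 186 and 258 in control mice (log2 fold change -1.66 ± 0.64, limma adjusted p = 0.202, with the block 0.0483). Cdc25c, the phosphatase that triggers mitosis, had 3.33, 56.2 and 22.99 in G007-LK mice, against 45.4, 91.6 and 106 in control mice (log2 fold change -2.09 ± 0.84, limma adjusted p = 0.233, with the block 0.0229). Birc5, the mitotic protein survivin, had 17.8, 58.8 and 39.2 in G007-LK mice, against 191, 97.0 and 62.7 in control mice (log2 fold change -1.58 ± 0.67, limma adjusted p = 0.29).

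Of 28 DNA repair genes, 24 were below 0 and 1 was called lower, and the median was -0.42. The per-mouse medians were -1.65, 0.07 and -0.22, and without G007-LK replicate 1 the median was -0.05. In addition, 12 of the 28 had a mean below the average background of 23.1. Trp53, which encodes p53, had 35.4, 76.7 and 64.7 in G007-LK mice, against 125, 116 and 129 in control mice. All 3 G007-LK mice were below all controls for Trp53, though the change was not called (log2 fold change -1.12 ± 0.50, limma adjusted p = 0.334). Of 13 apoptosis genes 1 was called lower, the promoter of cell death Bad, with the block Mcl1 was called higher, and the median was 0.05.

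The Wnt family itself held ligand, receptor and destruction complex genes, with Ctnnb1 and Tcf7, the latter also listed with the T cell genes. Of its 9 genes 5 were above 0, and the median was 0.16, which turned to -0.20 without control replicate 1. Limma called none, 1 had an unadjusted p under 0.05, and calls by edgeR and by DESeq2 numbered 0. The one was Apc, the scaffold that holds beta-catenin in the destruction complex, with 116, 135 and 84.3 in G007-LK mice, against 397, 189 and 188 in control mice. The groups did not overlap, and control replicate 1 lay well above its partners (log2 fold change -1.13 ± 0.46, limma adjusted p = 0.26). Notch and Hedgehog genes had a median of -0.39, which turned to 0.20 without G007-LK replicate 1, and Hippo genes one of 0.06, which turned to -0.52 without control replicate 1. Amotl2, a partner of the Hippo effector YAP, had 86.2, 414 and 258 in G007-LK mice, against 245, 509 and 673 in control mice.

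Of 21 RAS-MAPK genes 12 were above 0 (median 0.07, and -0.12 without control replicate 1), and of 23 PI3K, AKT and mTOR genes 12 were (median 0.18). Limma called none of these, 2 had an unadjusted p under 0.05, and no gene was called by edgeR or by DESeq2 (0 each). Mapk3, the kinase ERK1, had 459, 320 and 353 in G007-LK mice, against 809, 762 and 799 in control mice, a narrow spread within each group without overlap (log2 fold change -1.08 ± 0.44, limma adjusted p = 0.26). Map2k2, its upstream kinase MEK2, had 424, 969 and 1120 in G007-LK mice, against 1124, 2112 and 1617 in control mice. Rragc, a RAG GTPase that brings mTORC1 to the lysosome, had 292, 74.1 and 127 in G007-LK mice, against 73.6, 16.2 and 23.5 in control mice. The lowest G007-LK mouse and the highest control nearly met, and the log2 fold change of 2.16 ± 0.83 was called with the block (limma adjusted p = 0.202, with the block 0.0276). Pik3cd, the leukocyte PI3-kinase, had 148, 294 and 202 in G007-LK mice, against 60.8, 124 and 121 in control mice. Prkca, a protein kinase C, had 18.4, 69.0 and 74.9 in G007-LK mice, against 140, 91.6 and 94.0 in control mice.

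Of 11 epithelial genes 9 were below 0 and 4 were called lower, with a median of -0.86 that was -0.49 without G007-LK replicate 1. Sdc1, the heparan sulphate proteoglycan syndecan-1 of epithelial and plasma cells, ran against them with 570, 128 and 230 in G007-LK mice, against 70.9, 51.2 and 78.3 in control mice. No G007-LK mouse overlapped the controls, and the log2 fold change of 1.94 ± 0.60 was called with the block (limma adjusted p = 0.1, with the block 0.0229). The general epithelial markers Epcam and Cdh1 summed to 144, 130.4 and 336 in G007-LK mice, against 479, 269 and 204 in control mice, which overlap, and neither was called.

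**Figure D4:**
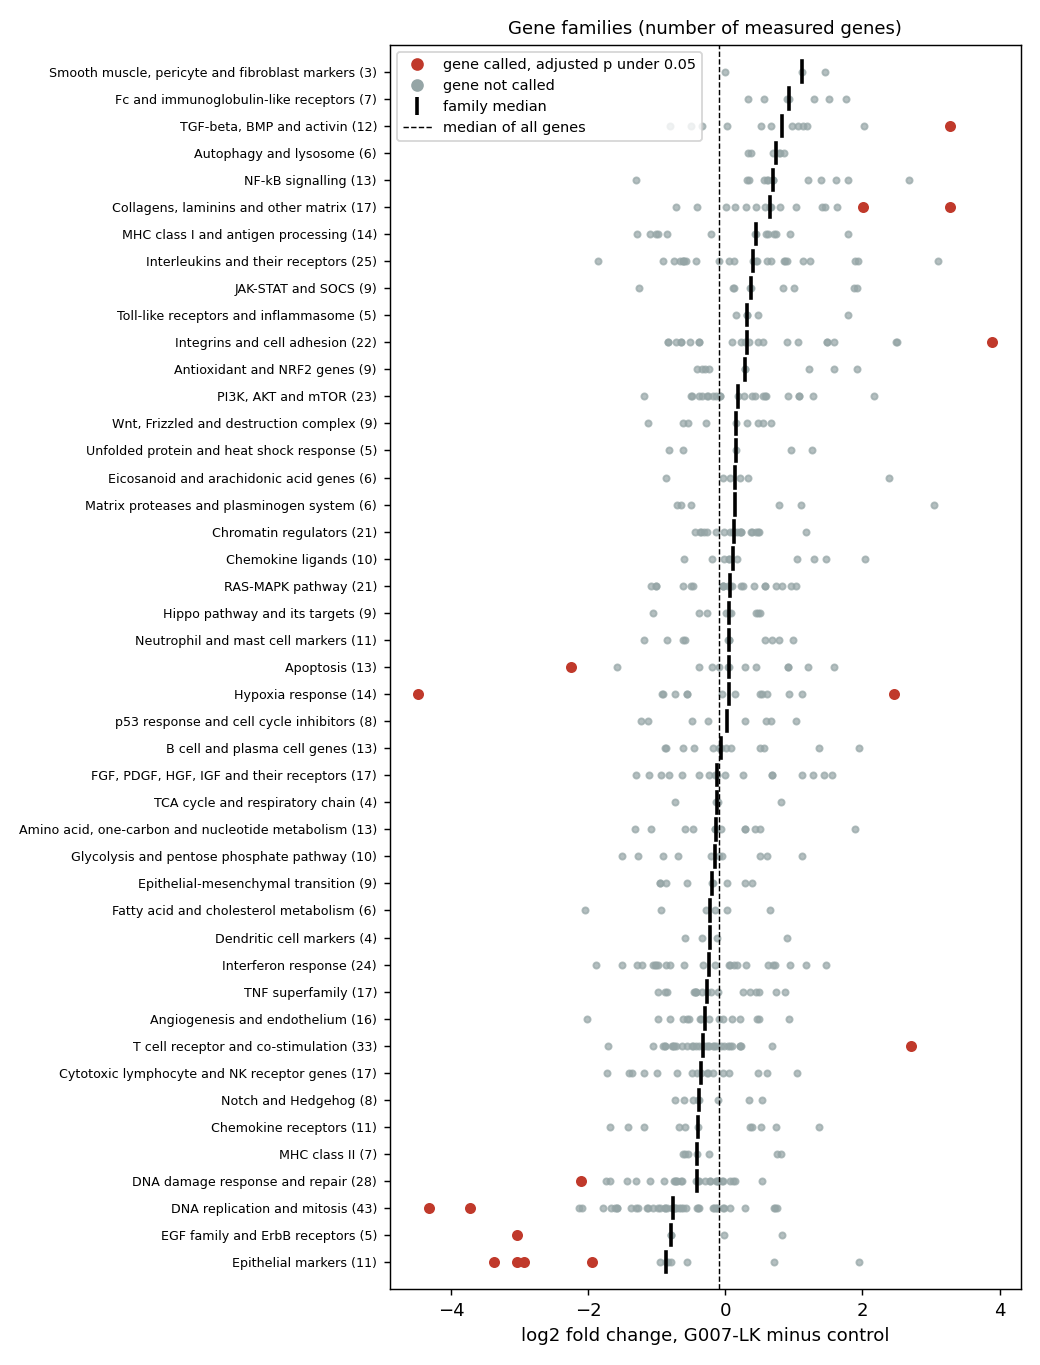
Log2 fold change, G007-LK minus control, of every measured gene in the 45 families, ordered by family median (black tick), with called genes in red, other genes in grey and the median of all genes as the dashed line. Fibroblast markers, myeloid receptors and TGF-beta genes head the list, and epithelial, EGF family and replication genes end it. The EGF family median of -0.79 turned to 0.18 without G007-LK replicate 1.

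Of 33 genes of the T cell receptor and co-stimulation, 25 were below 0, Cd274 was called higher, and the median was -0.32. It was 0.53 without G007-LK replicate 1 and -1.02 without control replicate 1, where the median of all genes was 0.27 and -0.40. The 5 T cell markers summed to 43.6, 381 and 370.4 in G007-LK mice, against 81.5, 442 and 411 in control mice, so that the first replicate of both groups was low. B cell markers did likewise, with 41.4, 205 and 204 in G007-LK mice, against 38.3, 194 and 235 in control mice. In 17 genes of cytotoxic lymphocytes and natural killer cells the median was -0.35, in 7 MHC class II genes -0.42, and in 17 TNF superfamily genes -0.27, and each of these medians turned positive without G007-LK replicate 1. Limma called none in those 3 families, 1 had an unadjusted p under 0.05, and calls by edgeR and by DESeq2 numbered 0. That one was Gzma, granzyme A, with 21.8, 23 and 20.4 in G007-LK mice, against 129, 62.0 and 50.9 in control mice. The 3 G007-LK values were almost equal and all below the controls, although 1 of them did not exceed its background (log2 fold change -1.73 ± 0.75, limma adjusted p = 0.304, with the block 0.0618).

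Of 14 genes of MHC class I and antigen processing, 8 were above 0 and the median was 0.44. Limma called none, 2 had an unadjusted p under 0.05, and calls by edgeR and by DESeq2 numbered 0. H2-D1, a classical class I heavy chain, had 4661, 289 and 1426 in G007-LK mice, against 935, 181 and 274 in control mice. It was higher in each G007-LK mouse than in the control of the same number, a pairing that no label gives. Control replicate 1 exceeded G007-LK replicate 2, so the groups overlapped (log2 fold change 1.79 ± 0.77, limma adjusted p = 0.304, with the block 0.0483). H2-D1 belongs to a family of near-identical genes, so counts from its relatives are possible. Tap2, which pumps peptides to class I molecules, had 291, 1201 and 616 in G007-LK mice, against 313, 256 and 376 in control mice, and overlapped through replicate 1.

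**Figure D5:**
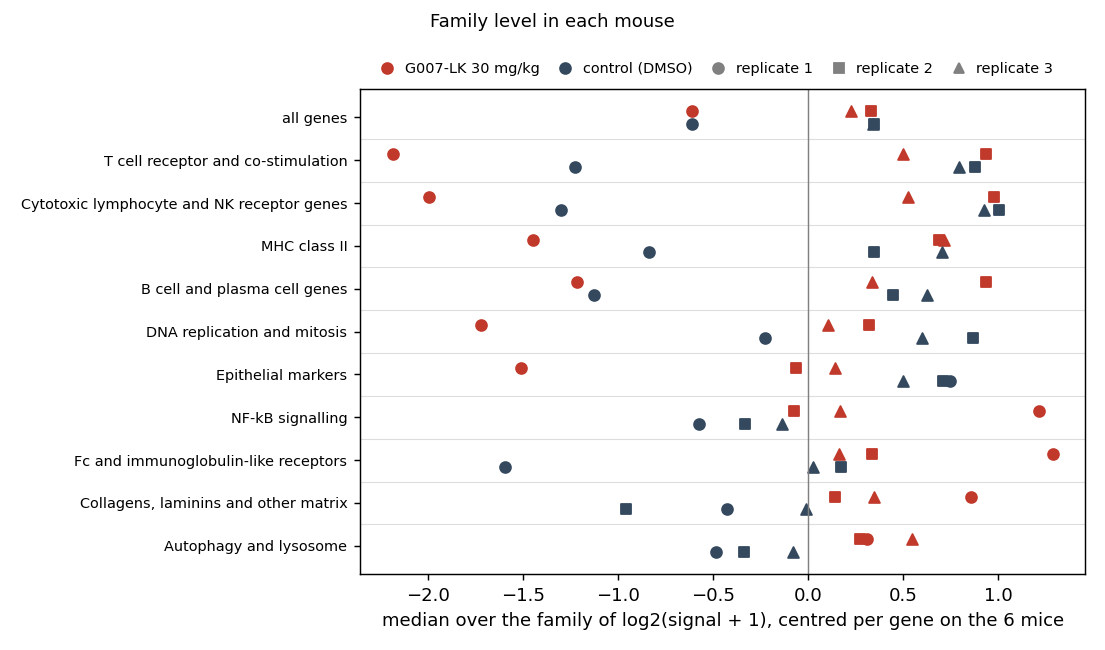
Median over each family of log2(signal + 1), centred per gene on the mean of the 6 mice, for G007-LK mice (red, upper) and control mice (dark blue, lower) of each family, with marker shape for the replicate number. Replicate 1 of both groups is far to the left in the lymphocyte families, whereas the matrix, NF-kB and autophagy medians of the 3 G007-LK mice lie to the right of every control, and the epithelial medians to the left.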

How the data were processed

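Ileal RNA was hybridized to an nCounter panel of 780 genes, per the labels' protocols. The deposited values are a normalized signal on a linear scale, made by the authors. The software, background rule and normalization genes are not given in the sources used here. Per library, the values are whole counts times 1 factor, with a floor of 1, as found from the values. The tolerance was 0.0051 plus a small share of the value, so the brightest values pass whatever they are. A step per library returned whole counts for 98.7% to 100% of genes in the 6 libraries. The spread between replicates exceeded that of counting alone. Background was taken in each library from 8 negative controls, as their mean with 2 SD added, and then rescaled like the genes. It averaged 23.1 over the 12 libraries.

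Limma 3.58.1 (lmFit, eBayes with trend) was applied to log2(signal + 1) of 780 genes, over all 12 libraries in 4 groups, so that the spread is shared (total degrees of freedom 16.8). Each test was two-sided and adjusted by Benjamini-Hochberg across the 780 genes, and a gene was called under 0.05. P-values measure only the spread between these mice. A fold change is the difference between group means of log2 values, given with limma's moderated SE. edgeR 4.0.16 and DESeq2 1.42.0 were run on the recovered counts as alternatives. The fit was also run on simulated counts with the same dispersion for every gene and no library set apart. That run cannot show how the fit behaves with a replicate 1 that stands apart.

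Deviations from the group means correlated between same-numbered G007-LK and control mice at r = 0.60, 0.48 and 0.31 over genes for replicates 1 to 3. The numbers were taken to pair the mice in the block fit, from the data and not from a label. Deviations from a group mean cancel out within the group, and replicate 1 stood apart in both groups. That alone draws the other replicates the same way. Unlike-numbered mice were not compared, so these correlations cannot show that the numbers pair the mice.

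Named genes are all called genes, up to 3 uncalled genes with the smallest p in each family, and 10 rises and 10 falls with the smallest p among uncalled genes without overlap. Genes already singled out in earlier results of these data were left out of the last 2 choices, except Tnfaip3, which was added after its values were seen. Uncalled genes had to exceed the mean background on average, and values are given for those with an unadjusted p under 0.1. Some genes that this rule takes are not reported here. The groups, families and genes were chosen with earlier results of these data known. Symbols and promoters come from RefSeq: 775 symbols matched, 2 matched by synonym and 3 probes for several genes did not.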

Additional observations from a re-analysis of the deposited data

How the results depend on the processing

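Of 18 genes called higher, the count was 41 with the replicate block, 81 with array weights, 32 with DESeq2, 9 with the G007-LK and control libraries alone, 8 after median-ratio rescaling and 5 with a common background floor. For the 9 called lower, it was 22 with the replicate block, 79 with array weights, 15 with DESeq2, 14 after quantile normalization and 2 with the floor. Leaving out 1 replicate gave 10 to 32 genes higher and 5 to 15 lower. Genes wholly above the controls numbered 79, against 92 to 141 on leaving out 1 replicate and 182 without the 2 deepest libraries, and those wholly below numbered 62, against 74 to 187 and 215, where fewer mice make separation easier. All 27 called genes were among those called with the block, with array weights and without G007-LK replicate 2. The estimate of the array weights stopped before it converged, so the counts it gave are uncertain. The median of all genes ranged from -0.40 to 0.27 and moved by less than the spread between mice. Directions turned for Arg1 (-0.74) and Cxcl10 (-0.48) with array weights and for Ccl2 (-0.015) without the 2 deepest libraries, and the cause was not tested. With the common background floor the called genes Chek2 and Galnt3 had a difference of 0, as all their values lie below the floor. Depth limits the dim genes, since the median gene rested on 138.5 counts in G007-LK replicate 1, but on 24 in control replicate 3.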

Other observations

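Cd53, a tetraspanin of leukocytes that lies in none of the families, was picked out after its values were seen. It had 410, 89.5 and 186 in G007-LK mice, against 22.5, 67.4 and 82.2 in control mice, without overlap, with a log2 fold change of 1.90 ± 0.66 (limma adjusted p = 0.151, and 0.0466 with the replicate block). Of 21 chromatin regulators 14 were above 0 and the median log2 fold change was 0.12 (-0.23 without control replicate 1), while limma called none, 0 reached an unadjusted p under 0.05, and calls numbered 0 with edgeR and with DESeq2. Of 16 angiogenesis and endothelial genes 11 were below 0 and the median was -0.30. The 5 endothelial markers summed to 275, 358 and 380 in G007-LK mice, against 306, 407 and 509 in control mice, which overlap. The 4 mast cell markers summed to 94.7, 289 and 305 in G007-LK mice, against 79.7, 251 and 266 in control mice, and the 2 neutrophil markers to 58.6, 174 and 118, against 41.0, 205 and 255 in controls, again with overlap and with replicate 1 lowest in both groups. Only 1 of the 4 mast cell markers had a log2 fold change above 0, with a median of -0.60, so their sum does not stand for each marker.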
